A study of Mus musculus with 4 samples.

Results

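The STING gene Tmem173 and 9 other genes of nucleic acid sensing were followed across 4 RNA sequencing libraries of mouse leukaemic cells. The genes were taken by name from the deposited table of 23240 gene rows: Tmem173, Trex1, Ddx58, Ifih1, Mavs, Tbk1, Irf3, Tlr7, Tlr9 and Myd88. All 10 were in the table. The set was chosen by role and selected on the known differences between 4OHT and EtOH in these libraries, above all the rise of Tmem173. Differences of these genes between 4OHT and EtOH are therefore given as a description, without p-values. Calls of these genes in that contrast, defined below, are part of the description and are not evidence.

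The cells came from the bone marrow of leukaemic mice and were labelled RUNX1-FLT3ITD_AML, an acute myeloid leukaemia with altered RUNX1 and an internal tandem duplication of the FLT3 receptor. All groups were kept for 22 h in serum-free SFEM medium with FLT3L, SCF, IL3 and IL11, and cells sorted as GFP+BFP+CD11b-Gr1- were used. The libraries were 4OHT (200 nM) and its solvent EtOH in Runx1 delta/delta cells (label B6.Runx1-delta/delta, replicate 1), and 4OHT and EtOH in Runx1 delta/+ cells (label B6.Runx1-delta/+, replicate 2). Each combination was therefore 1 library, genotype and replicate number were the same factor, and the labels give no age, number of mice or promoter of an inducible protein. 4OHT is 4-hydroxytamoxifen, a tamoxifen metabolite commonly used to activate engineered proteins. What it acts on in these cells is not in the labels.

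The 4OHT libraries held 36.7 M (Runx1 delta/delta) and 39.4 M (Runx1 delta/+) mapped reads, against 34.6 and 33.7 M for the EtOH libraries. The sorted cells carried much erythroid RNA: 8 erythroid markers summed to 2670 and 1301 RPKM in the 4OHT libraries of Runx1 delta/delta and Runx1 delta/+, against 16477 and 5699 RPKM in the EtOH libraries. RPKM scales reads by gene length and by mapped reads, so levels of different genes can be compared. Of 9 plasmacytoid dendritic cell markers 4 were at 0 in every library, among them Siglech and Ccr9. The 9 summed to 7.65 and 6.14 RPKM in 4OHT against 3.36 and 3.29 RPKM in EtOH, mostly Tcf4 and Ly6d. Conventional dendritic cell markers, mostly Flt3, summed to 19.6 and 45.0 RPKM in 4OHT against 17.6 and 55.9 RPKM in EtOH. Neutrophil markers summed to 45.8 and 18.2 RPKM in 4OHT against 42.1 and 17.2 RPKM in EtOH. The 7 B cell markers summed to at most 0.287 RPKM in any library, and the 11 markers of monocytes and macrophages to 5.97 and 4.94 RPKM in 4OHT, against 3.61 and 4.35 RPKM in EtOH. The 9 T and NK cell markers summed to 6.85 and 2.85 RPKM in 4OHT, against 0.337 and 0.384 RPKM in EtOH. Nkg7 made up 6.53 and 2.68 RPKM of these sums in 4OHT, against 0.178 and 0.365 RPKM in EtOH. The 8 mast cell and basophil markers summed to 289 and 92.1 RPKM in 4OHT against 192 and 198 RPKM in EtOH, mostly Gata2. They did not move together. Prss34 had 79.6 and 11.3 RPKM in 4OHT against 3.04 and 1.81 RPKM in EtOH. Cpa3 had 24.2 and 8.66 RPKM against 0.637 and 1.84 RPKM, and Ms4a2 14.2 and 4.60 RPKM against 0.859 and 1.09 RPKM. Lower in both 4OHT libraries were Gata2 (145 and 63.5 RPKM against 180 and 182 RPKM) and Cma1 (1.14 and 0.755 RPKM against 1.32 and 2.62 RPKM). Fcer1a, Mcpt8 and Tpsb2 were higher with 4OHT in Runx1 delta/delta and lower in Runx1 delta/+. Runx1 had 380.5 and 327.7 RPKM in 4OHT against 568 and 555 RPKM in EtOH, a whole-gene value that does not show which exons remain, and Flt3 had 16.8 and 39.7 RPKM in 4OHT against 12.6 and 46.3 RPKM in EtOH. Kit, a marker of immature blood cells, was low at 1.61 and 0.740 RPKM in 4OHT, against 0.0781 and 0.0973 RPKM in EtOH. The 6 genes listed for the sorted blast gate, mostly Flt3, summed to 26.7 and 42.2 RPKM in 4OHT against 16.6 and 48.2 RPKM in EtOH. They did not all rise like Kit: Itgam had 0.297 and 0.168 RPKM in 4OHT against 0.358 and 0.228 RPKM in EtOH. Ly6c2 had 7.48 and 1.52 RPKM in 4OHT against 3.39 and 1.44 RPKM in EtOH. The part of these cell type differences in the results was not tested. In such bulk libraries, fewer cells of a type and less RNA per cell cannot be told apart.

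Cells sense misplaced DNA and RNA through separate receptors that converge on a shared kinase and transcription factor. DNA in the cytosol is bound by cGAS, whose cyclic dinucleotide product activates STING on the endoplasmic reticulum. Viral-type RNA is bound by RIG-I and MDA5, which signal through MAVS on mitochondria. Both routes recruit the kinase TBK1, which activates IRF3 and interferon genes, while TLR7 and TLR9 detect nucleic acids in endosomes through MYD88. In blood cells these routes are best known from dendritic cells and macrophages.

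RefSeq promoter sequences (GRCm38.p6) were at hand for 8 of the 10 genes. The 100 bases before the transcription start are shown for called genes with an entry and for Myd88, since letters resembling interferon response elements differed among them. Capitals mark GAAACT and GAAA pairs spaced by any 2 bases, letters found in binding sites of interferon regulatory factors.
Ddx58 (chr4:40239826-40239925, minus strand): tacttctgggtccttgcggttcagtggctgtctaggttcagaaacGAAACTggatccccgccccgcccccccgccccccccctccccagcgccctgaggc
Ifih1 (chr2:62646256-62646355, minus strand): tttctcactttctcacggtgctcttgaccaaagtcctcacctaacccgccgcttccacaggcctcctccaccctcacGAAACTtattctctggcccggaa
Trex1, upstream start site (chr9:109059724-109059823, minus strand): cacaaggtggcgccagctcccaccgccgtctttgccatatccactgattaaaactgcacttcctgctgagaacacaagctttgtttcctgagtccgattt
Tbk1 (chr10:121586795-121586894, minus strand): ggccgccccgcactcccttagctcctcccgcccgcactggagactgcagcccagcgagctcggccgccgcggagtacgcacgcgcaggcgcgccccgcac
Myd88 (chr9:119340019-119340118, minus strand): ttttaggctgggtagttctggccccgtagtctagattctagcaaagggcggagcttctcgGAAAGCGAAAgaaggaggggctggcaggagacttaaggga

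Searched over 250 bases before the start and on both strands, GAAACT was present in Ddx58, starting 197 and 55 bases before the start, and in Ifih1, starting 23 bases before it. It was in 13.5% of all 32851 promoters and in no other of the 8 genes searched. The pair of GAAA spaced by any 2 bases was present only in Myd88 among the 8, beginning 40 bases before the start, against 2.98% of all promoters. TTCNNNGAA, letters of STAT binding sites, was also found only in Myd88 and overlapped that match (7.02% of all promoters). The RUNX core TGTGGT was in none of the 8, against 14% of all promoters. GAAACT was added after these sequences had been seen. These are matches of letters and do not show binding.

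**Figure D1:**
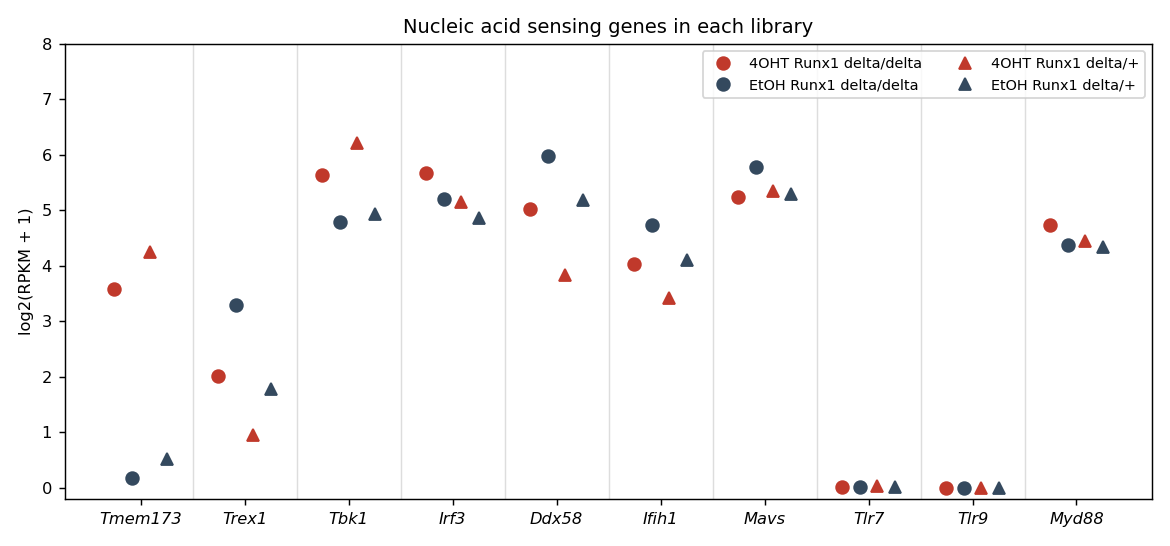
Level of each gene in each library on the log2(RPKM + 1) scale; red marks 4OHT, dark blue EtOH, circles Runx1 delta/delta and triangles Runx1 delta/+, 1 point per library. Tmem173 is near the bottom in both EtOH libraries (0.126 and 0.438 RPKM) and among the other sensors in 4OHT (11.1 and 18.0 RPKM), while Tlr7 and Tlr9 stay at the bottom in all 4.

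Tmem173, the adaptor STING, was nearly silent in EtOH and well expressed in 4OHT in both genotypes. It stood at 11.1 RPKM in 4OHT and 0.126 RPKM in EtOH in Runx1 delta/delta, and at 18.0 RPKM in 4OHT and 0.438 RPKM in EtOH in Runx1 delta/+. Behind these values were 935 reads in 4OHT against 10 in EtOH, and 1630 reads in 4OHT against 34 in EtOH. The 4OHT and EtOH libraries did not overlap. The level was 88.1-fold higher with 4OHT in Runx1 delta/delta (exact 95% interval 47.7 to 184) and 41.0-fold higher in Runx1 delta/+ (29.2 to 59.4); these intervals cover counting error only, and they overlap. In the authors' deposited table the fold of proportions for Tmem173 was 93.9 in replicate 1 and 42.5 in replicate 2. The fitted difference on the log2(RPKM + 1) scale was 3.57 (SE 0.17), and 6 of the 9595 genes tested rose more. With the pseudocount lowered to 0.1 it was 5.35.

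Trex1, the exonuclease that degrades cytosolic DNA and so restrains the cGAS and STING route, went the other way. It had 3.07 RPKM in 4OHT against 8.77 RPKM in EtOH in Runx1 delta/delta, and 0.937 RPKM in 4OHT against 2.43 RPKM in EtOH in Runx1 delta/+. These are 128 against 345 reads, and 42 against 93 reads. The level was lower in 4OHT in each genotype, 2.86-fold and 2.59-fold, but 4OHT Runx1 delta/delta lay above EtOH Runx1 delta/+, so the treatment groups overlapped. The fitted difference was -1.04 (SE 0.18). RefSeq also lists a read-through transcript of the neighbouring Atrip gene over Trex1, so some reads could belong to it.

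The RNA sensors Ddx58 and Ifih1 both fell with 4OHT. Ddx58, which encodes RIG-I, had 31.7 RPKM in 4OHT against 61.8 RPKM in EtOH in Runx1 delta/delta, and 13.2 RPKM in 4OHT against 35.4 RPKM in EtOH in Runx1 delta/+. It was 1.95-fold and 2.68-fold lower in 4OHT, and both 4OHT libraries lay below both EtOH libraries (fitted log2 difference -1.15, SE 0.16). Ifih1, which encodes MDA5, had 15.5 RPKM in 4OHT against 25.8 RPKM in EtOH in Runx1 delta/delta, and 9.71 RPKM in 4OHT against 16.1 RPKM in EtOH in Runx1 delta/+. It was 1.67-fold and 1.66-fold lower, with 4OHT below EtOH throughout (fitted log2 difference -0.69, SE 0.13). Both promoters above carry GAAACT, letters searched for only after these sequences had been seen and present in 13.5% of all promoters. Trex1, which also fell, had no match at either start site. Any link between these letters and the falls was not tested.

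Mavs, the adaptor of both RNA sensors, had no call. It had 36.9 RPKM in 4OHT against 54.1 RPKM in EtOH in Runx1 delta/delta, and 40.0 RPKM in 4OHT against 38.3 RPKM in EtOH in Runx1 delta/+. On the log2 scale the differences were -0.54 and 0.06, of opposite sign; with median-ratio scaling both were negative, -0.76 and -0.12.

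Tbk1, the kinase that STING and MAVS share, rose with 4OHT. It had 48.8 RPKM in 4OHT against 26.8 RPKM in EtOH in Runx1 delta/delta, and 73.0 RPKM in 4OHT against 29.6 RPKM in EtOH in Runx1 delta/+. It was 1.82-fold and 2.46-fold higher, and both 4OHT libraries lay above both EtOH libraries (fitted log2 difference 1.06, SE 0.16). Irf3, the transcription factor that TBK1 phosphorylates, had 49.8 RPKM in 4OHT against 36.0 RPKM in EtOH in Runx1 delta/delta, and 34.5 RPKM in 4OHT against 27.98 RPKM in EtOH in Runx1 delta/+. It was not called; the ratios of 1.38 and 1.23 came with overlapping groups and a fitted log2 difference of 0.37 (SE 0.14), or 0.17 with median-ratio scaling.

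The endosomal sensors were almost undetected. Tlr7, a receptor for single-stranded RNA, had 2 and 3 reads in the 4OHT libraries of Runx1 delta/delta and Runx1 delta/+, and 1 read in each EtOH library. Tlr9, a receptor for DNA with unmethylated CpG, was listed at 0 in all 4; with its annotated transcript of 3478 bases, 3 reads, the limit that a count of 0 allows, would be 0.0219 to 0.0256 RPKM. Their adaptor Myd88, which also serves other Toll-like and IL1 receptors, was expressed: 25.7 RPKM in 4OHT against 19.8 RPKM in EtOH in Runx1 delta/delta, and 20.8 RPKM in 4OHT against 19.2 RPKM in EtOH in Runx1 delta/+. Myd88 was not called (fitted log2 difference 0.23, SE 0.14), and with median-ratio scaling its small difference in Runx1 delta/+ became negative (-0.07).

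Of the 8 genes that averaged 1 RPKM or more, which were the ones tested, 2 were called higher with 4OHT (Tmem173 and Tbk1) and 3 lower (Trex1, Ddx58 and Ifih1). A call is a Benjamini-Hochberg adjusted p under 0.05 in limma over all 9595 genes, with treatment and genotype as terms. In this contrast 22.2% of all genes were called higher and 10.2% lower. Nothing is read from the counts or from single calls of these genes, because the contrast was known when they were chosen. This also holds for the other fits that follow. In either direction 32.4% were called. With median-ratio scaling the background was 26.5%, or 12.7% higher and 13.8% lower, and 2 of the 8 genes passed higher and 3 lower. With no filter on low values it was 13.3%, or 8.6% higher and 4.67% lower, and 2 of the genes passed each way, without Trex1. With no genotype term it was 2.43%, or 1.22% higher and 1.21% lower, and only Tmem173 passed. Without the EtOH library of Runx1 delta/delta, 0 of the 8 genes passed, in a fit with no genotype term that called 0 genes higher and 3 lower in all. The median log2 difference of the 7 tested genes other than Tmem173 was -0.24, against 0.16 for all genes tested.

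**Figure D2:**
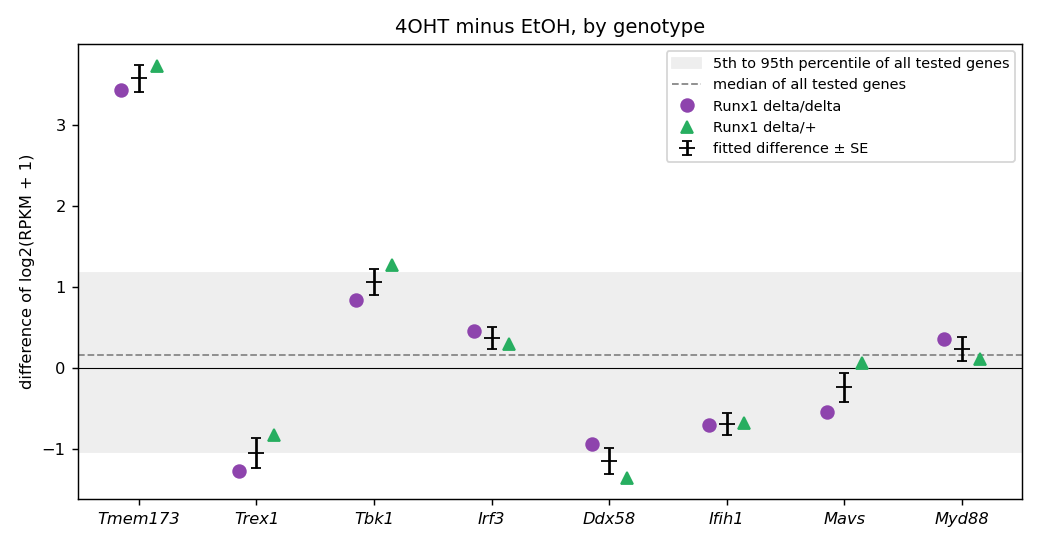
Difference of log2(RPKM + 1) between 4OHT and EtOH for the 8 tested genes; coloured points are the genotypes, 1 pair of libraries each, black marks the fitted difference ± SE, the grey band spans the middle 90% of all tested genes. Tmem173 lies far above the band (3.57), with Tbk1 (1.06) inside the band and Ddx58 (-1.15) and Trex1 (-1.04) just below it.

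The order of levels shifted with treatment. Tmem173 was the eighth of the 10 genes in both EtOH libraries; in 4OHT it was the seventh in Runx1 delta/delta and the fifth in Runx1 delta/+, above Ddx58 and Ifih1 there. Ddx58 was the highest in EtOH Runx1 delta/delta and the fourth in the matching 4OHT library; in Runx1 delta/+ it was the sixth in 4OHT and the second in EtOH. Within single libraries a few neighbours in the order had overlapping counting intervals: Irf3 and Tbk1 in 4OHT Runx1 delta/delta (49.8 and 48.8 RPKM), Tbk1 and Ifih1 in EtOH Runx1 delta/delta (26.8 and 25.8 RPKM), and Tbk1 and Irf3 in EtOH Runx1 delta/+ (29.6 and 27.98 RPKM).

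Tmem173 was also set against the other 9 genes inside each library. Their median was 25.7 RPKM in 4OHT and 25.8 RPKM in EtOH in Runx1 delta/delta, and 13.2 RPKM in 4OHT and 19.2 RPKM in EtOH in Runx1 delta/+. Tmem173 minus that median, on the log2(RPKM + 1) scale, was -1.14 in 4OHT and -4.57 in EtOH in Runx1 delta/delta, and 0.42 in 4OHT and -3.82 in EtOH in Runx1 delta/+. The gap was therefore narrower in 4OHT in both genotypes. The sum of the other 9 was lower in 4OHT in Runx1 delta/delta, 211 RPKM against 233 RPKM in EtOH. In Runx1 delta/+ it was higher, 192 RPKM in 4OHT against 169 RPKM in EtOH. The other 9 were not a stable reference, since in both genotypes Tbk1 was higher and Ddx58, Ifih1 and Trex1 were lower with 4OHT. The sign of the gap in 4OHT Runx1 delta/+ depended on the summary. It was -0.24 against the mean of the other 9 and -0.20 against the 7 with at least 1 RPKM.

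The 6 genes whose profile over the 4 libraries was nearest to that of Tmem173 were Scin, Dpp4, Gatsl3, Abca2, Cd244 and Clic3. Nearness was the Euclidean distance between log2(RPKM + 1) values centred on each gene's mean, 0.32 for Scin and 0.77 for Clic3, against a median of 3.47 over all tested genes. Scin, which encodes an actin-severing protein, had 9.80 RPKM in 4OHT and 0.0193 RPKM in EtOH in Runx1 delta/delta, and 12.0 RPKM in 4OHT and 0.158 RPKM in EtOH in Runx1 delta/+. Clic3, of the chloride intracellular channel family, had 8.89 RPKM in 4OHT and 0.253 RPKM in EtOH, and 9.53 RPKM in 4OHT and 0.446 RPKM in EtOH. None of the 6 belongs to the other 9 sensing genes.

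**Figure D3:**
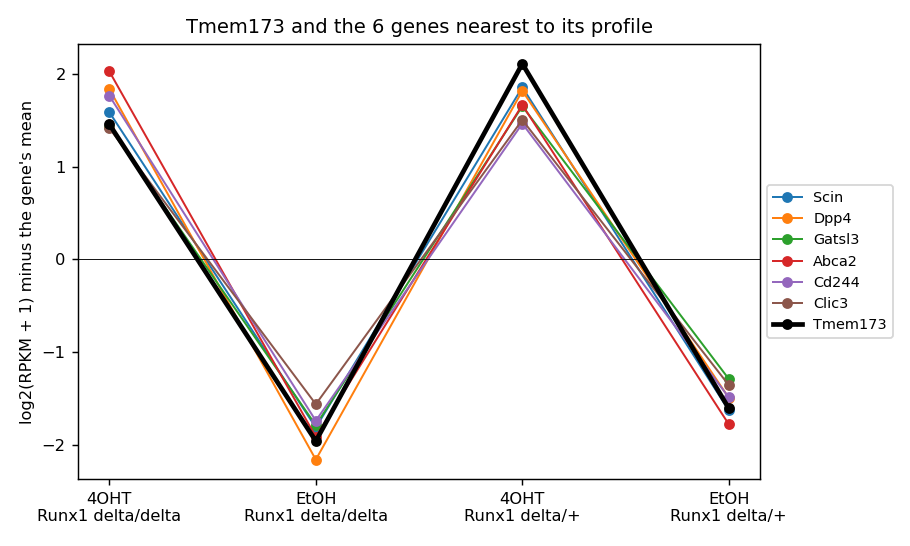
Profiles of Tmem173 (thick black line) and the 6 nearest genes over the 4 libraries, as log2(RPKM + 1) minus each gene's mean; lines only join the values of 1 gene. All 7 genes are above their mean in both 4OHT libraries and below it in both EtOH libraries, with distances of 0.32 to 0.77 from Tmem173. The 6 were chosen for this nearness, so the shared shape follows from the choice.

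Genes next to Tmem173 on chromosome 18 did not share one pattern. In RefSeq order the protein-coding neighbours on one side were 1700066B19Rik and Ecscr, both at or below 0.253 RPKM in every library. On the other side, Ube2d2, a ubiquitin-conjugating enzyme gene, had 45.8 RPKM in 4OHT against 34.7 RPKM in EtOH in Runx1 delta/delta, and 44.8 RPKM in 4OHT against 42.8 RPKM in EtOH in Runx1 delta/+, with no call (log2 difference 0.23, SE 0.15, limma adjusted p = 0.286). Cxxc5, a CXXC zinc finger gene, had 2.54 RPKM in 4OHT against 0.0764 RPKM in EtOH, and 7.29 RPKM in 4OHT against 1.76 RPKM in EtOH. It rose (log2 difference 1.65, SE 0.17, limma adjusted p = 0.00462).

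The comparison of Runx1 delta/delta with Runx1 delta/+ was not the contrast used to choose the genes, and it was tested in the same fit. Both contrasts share the same residual with 1 degree of freedom, so the genotype p-values are not fully independent of the choice. Trex1, Ddx58 and Ifih1 were higher in Runx1 delta/delta, and 0 of the 8 tested genes were called lower, while 11.6% of all genes were called, 4.68% higher and 6.91% lower. With median-ratio scaling these shares were 8.81%, 4.39% and 4.42%. Trex1 was 3.27-fold higher in the 4OHT libraries and 3.62-fold in the EtOH libraries (log2 difference 1.29, SE 0.18, limma adjusted p = 0.0259). Ddx58 was 2.40-fold and 1.74-fold higher (log2 difference 0.99, SE 0.16, limma adjusted p = 0.0293), and Ifih1 1.59-fold and 1.60-fold higher (log2 difference 0.63, SE 0.13, limma adjusted p = 0.0442). Each was higher in both treatments, so with 2 pairs the direction was the same in 2 of 2. These genes were not alone in this. Of the 105 other pathway genes tested, described below, 12 were called higher in Runx1 delta/delta and 6 lower. Among those called higher, Irf7, Zbp1, Ifit1 and Isg15 had larger log2 differences than Trex1 (2.70, 2.69, 2.28 and 2.14).

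The other tested members of the 10 sensing genes did not pass between genotypes. Tmem173 had 11.1 and 0.126 RPKM in 4OHT and EtOH of Runx1 delta/delta, against 18.0 and 0.438 RPKM in 4OHT and EtOH of Runx1 delta/+ (log2 difference -0.50, SE 0.17, limma adjusted p = 0.110). Tbk1 had a log2 difference of -0.36 (SE 0.16, limma adjusted p = 0.195) and Irf3 of 0.43 (SE 0.14, limma adjusted p = 0.0981). Mavs and Myd88 had log2 differences of 0.19 and 0.16 (limma adjusted p = 0.515 and 0.471). The 3 calls were lost when low genes were not filtered out, with limma adjusted p of 0.0796 for Trex1, 0.0673 for Ddx58 and 0.0861 for Ifih1, and in that fit 0 genes of any kind were called (3906 at an unadjusted p under 0.05). Since each genotype is 1 replicate number and nothing says it holds more than 1 mouse, the comparison is of these libraries.

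**Figure D4:**
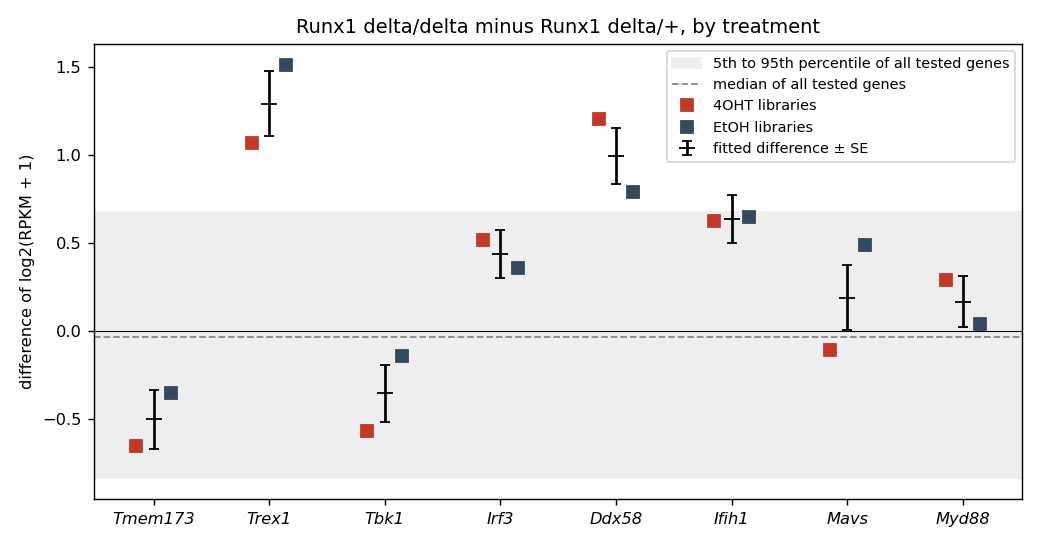
Difference of log2(RPKM + 1) between Runx1 delta/delta and Runx1 delta/+ for the 8 tested genes; red squares are the 4OHT libraries, dark blue squares the EtOH libraries, black marks the fitted difference ± SE, the grey band the middle 90% of all tested genes. Trex1 (1.29) and Ddx58 (0.99) lie above the band and Ifih1 (0.63) inside it, while Tmem173 (-0.50) and Tbk1 (-0.36) are below 0.

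Other genes of the same routes came from 6 lists drawn up by role, with earlier results of these data known. Together they held 154 genes in the table, of which 105 were tested; 17 rose and 21 fell with 4OHT, with a median log2 difference of -0.07 against 0.16 for all genes tested. Over all genes 22.2% were called higher and 10.2% lower, the background for each list that follows. With median-ratio scaling 11 rose and 32 fell. The genes named with p-values below are up to 4 of each list with the smallest p for 4OHT, and 10 fixed by name. Those picked for a small p do not represent their list.

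Among cGAS, other DNA sensors and partners of STING, 25 of 33 genes were tested; 5 rose, 3 fell and 17 had no call, near the background of 22.2% higher and 10.2% lower. cGAS itself (E330016A19Rik in the table) was low, at 0.803 RPKM in 4OHT against 1.37 RPKM in EtOH in Runx1 delta/delta, and 1.02 RPKM in 4OHT against 1.20 RPKM in EtOH in Runx1 delta/+, with no call (limma adjusted p = 0.353). Aim2, the DNA sensor of an inflammasome, rose (log2 difference 0.70, SE 0.19, limma adjusted p = 0.0455), with 3.92 RPKM in 4OHT against 2.74 RPKM in EtOH in Runx1 delta/delta, and 11.3 RPKM in 4OHT against 5.18 RPKM in EtOH in Runx1 delta/+. This call was lost with median-ratio scaling (limma adjusted p = 0.116) and with no filter (0.131). Zbp1, a sensor of Z-form nucleic acids, was called lower, with overlapping groups: it had 9.49 RPKM in 4OHT against 17.9 RPKM in EtOH, and 0.317 RPKM in 4OHT against 2.61 RPKM in EtOH (log2 difference -1.15, SE 0.20, limma adjusted p = 0.0126; 0.0506 with no filter). Zbp1 was lower with 4OHT within each genotype (log2 differences -0.85 for replicate 1 and -1.45 for replicate 2). Its genotypes also differed (log2 difference 2.69). The fits with a library left out held no genotype term, so their treatment groups were unbalanced for genotype. In these fits the 4OHT difference of Zbp1 turned to 0.34 without 4OHT replicate 2 and 0.04 without EtOH replicate 1. They therefore cannot show whether its direction rested on a single library. Aim2, whose groups overlapped, was at 0.03 to 1.36 with a library left out. Slc19a1, a folate carrier that imports cyclic dinucleotides in human cells, and Surf4, a cargo receptor of the secretory pathway, had log2 rises of 1.29 and 1.07 (limma adjusted p = 0.0126 and 0.0112). Xrcc5, the Ku80 subunit of the DNA end-binding complex, rose by 0.95 and Trim56, a ubiquitin ligase, fell by 1.01 (limma adjusted p = 0.00805 and 0.00721). Ikbke, the kinase related to TBK1, had no call (log2 difference 0.30, limma adjusted p = 0.166).

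In the RIG-I-like receptor path all 31 genes were tested; 4 rose, 3 fell and 24 had no call, with a median log2 difference of 0.17. Dhx58, the third sensor of this family (LGP2), had 53.3 RPKM in 4OHT against 101.6 RPKM in EtOH in Runx1 delta/delta, and 9.75 RPKM in 4OHT against 36.7 RPKM in EtOH in Runx1 delta/+. Its log2 difference was -1.36 (SE 0.23, limma adjusted p = 0.0127), in the same direction as Ddx58 and Ifih1. Its level was also higher in Runx1 delta/delta than in Runx1 delta/+ (log2 difference between genotypes 1.89, SE 0.23, limma adjusted p = 0.0204), and its 4OHT and EtOH libraries overlapped. With a library left out, its 4OHT difference was -2.53 to -0.20. Eif2ak2, the double-stranded RNA kinase PKR, fell by 0.88 (limma adjusted p = 0.0103) and Traf5, a signalling adaptor, by 1.33 (limma adjusted p = 0.00676). Rnf125, a ubiquitin ligase that limits RIG-I signalling, had a log2 rise of 1.31 and Polr3d, an RNA polymerase III subunit, by 1.17 (limma adjusted p = 0.00708 and 0.00592).

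In the endosomal Toll-like receptor path 24 of 29 genes were tested; 4 rose and 7 fell, with a median of -0.37. The other nucleic acid receptors Tlr3, Tlr8 and Tlr13 averaged at most 0.0299 RPKM over the 4 libraries. Unc93b1, which escorts these receptors to endosomes, was low and fell: 0.745 RPKM in 4OHT against 1.77 RPKM in EtOH, and 0.358 RPKM in 4OHT against 1.44 RPKM in EtOH (limma adjusted p = 0.0356). Irak3, an inhibitor of signalling from MYD88, had 25.7 RPKM in 4OHT against 2.84 RPKM in EtOH in Runx1 delta/delta, and 23.0 RPKM in 4OHT against 4.84 RPKM in EtOH in Runx1 delta/+. It rose by 2.42 on the log2 scale (SE 0.21, limma adjusted p = 0.00320), the largest rise among the 105. Irak2, a kinase of the same complex, fell by 1.40 (limma adjusted p = 0.00569), and Cnpy3, a chaperone of Toll-like receptors, rose by 0.91 (limma adjusted p = 0.00914). Irf7, which acts below TLR7 and TLR9 and is itself induced by interferon, had 238 RPKM in 4OHT against 671 RPKM in EtOH, and 26.3 RPKM in 4OHT against 137.7 RPKM in EtOH, and fell by 1.92 (limma adjusted p = 0.00578), with overlapping groups and a range of -3.48 to -0.35 with a library left out. Of 10 genes of Toll-like receptors for other ligands 1 was tested, Ly96, with no call (limma adjusted p = 0.452).

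Of 16 tested nucleases and nucleotide enzymes 4 rose and 1 fell. Apex1, the abasic site endonuclease, rose by 1.38, Pld3, an endolysosomal exonuclease, by 1.07 and Rnaseh1 by 0.83, as log2 differences (limma adjusted p = 0.00462, 0.0138 and 0.0135), and Dnase1l1 fell by 0.97 (limma adjusted p = 0.00963). Samhd1, which breaks down nucleotides, had no call with 4OHT (log2 difference -0.14, limma adjusted p = 0.460).

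Most tested output genes of IRF3, among them interferon-induced antiviral genes and chemokines, fell with 4OHT. Of 30 such genes 8 were tested; 7 fell and 0 rose, where 10.2% of all genes were called lower, with a median log2 difference of -1.68, and 16 were at 0 in every library, Ifnb1 among them. Earlier results on interferon genes of these libraries were known when the list was made, so the count is not independent evidence of its direction. Cxcl10, a chemokine, had 0.248 RPKM in 4OHT against 10.4 RPKM in EtOH in Runx1 delta/delta, and 0.346 RPKM in 4OHT against 3.21 RPKM in EtOH in Runx1 delta/+ (log2 difference -2.42, SE 0.37, limma adjusted p = 0.00984). Ifit1, an inhibitor of foreign RNA translation, fell by 3.64, Isg15 by 2.38, Gbp2 by 1.95 and Isg20 by 1.18 (limma adjusted p = 0.00194, 0.00315, 0.00584 and 0.00547). With a library left out, Isg15 was at -3.64 to -1.13 and Isg20, whose groups overlapped, at -1.98 to -0.39. Fitted without genotype, 1 of the 105 genes rose (Irak3) and 0 fell, so these calls rest on the genotype term.

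**Figure D5:**
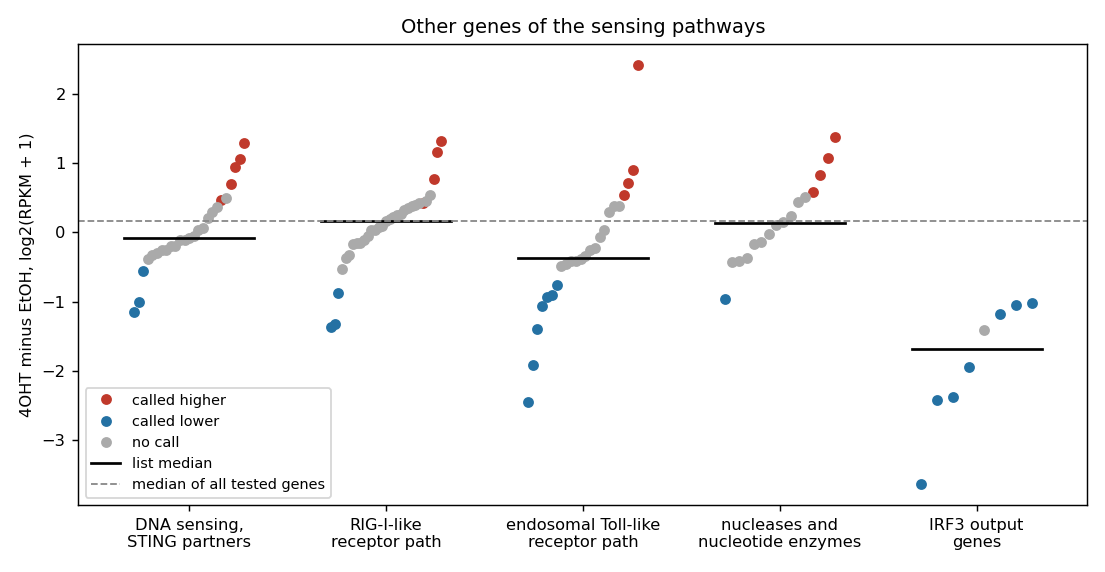
Difference of log2(RPKM + 1) between 4OHT and EtOH for each tested gene of 5 lists (the list with 1 tested gene is left out); red marks genes called higher, blue genes called lower, grey no call, the black bar the list median and the dashed line the median of all tested genes (0.16). The IRF3 output genes lie below the dashed line throughout (median -1.68), and the other lists spread to both sides of it.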

How the data were processed

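RNA sequencing of 4 mouse libraries was analysed. The deposited values are RPKM per library, per the file headers. A signed fold of proportions (a score) and p-values were deposited beside them and came from a Kal's Z-test on each pair of libraries, per the file headers. Per the submitters' processing notes the build was mm 9; aligner, annotation, counting and strand are not given in the sources. Per the labels' protocols a TruSeq or a NEBNext kit was used, without saying for which library. A kit difference therefore cannot be told apart from treatment or from genotype.

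Whole reads were recovered from the RPKM steps (tolerance 0.02 reads, with a whole gene length) for 145 of the 145 members and pathway genes above 0. Exact Poisson and conditional binomial intervals (95%) and the floor of 3 reads cover counting error only, since reads are not independent molecules.

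limma 3.58.1 (R 4.3.3) was fitted to log2(RPKM + 1) with a trended prior. The 9595 genes averaging 1 RPKM or more entered, treatment and genotype were the terms, tests were two-sided, and Benjamini-Hochberg adjusted p under 0.05 made a call. This scale understates the change of low genes. 1 residual degree of freedom remained, so p-values reflect only the residual spread of 4 samples, which may be technical. Members and lists were chosen with earlier results of these data known. Named genes were the 10 members, up to 4 of each list with the smallest p and 10 list genes fixed by name; the neighbours of Tmem173 were added after values had been seen. Alternatives were another pseudocount, no filter, median-ratio scaling, a fit with only the term tested, and each library left out.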

Additional observations from a re-analysis of the deposited data

Results flagged for a closer look

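Mavs moved in opposite directions in the genotypes. On the log2(RPKM + 1) scale, 4OHT minus EtOH was -0.54 for the Runx1 delta/delta pair and 0.06 for the Runx1 delta/+ pair, so the genotypes differed by -0.60. Ly96, which encodes the MD-2 partner of TLR4, did the reverse, with 0.14 for Runx1 delta/delta and -0.65 for Runx1 delta/+, a difference of 0.79. Ly96 rested on few reads, 22 in 4OHT against 17 in EtOH for Runx1 delta/delta, where the counting interval of the ratio, 0.618 to 2.44, held 1, and 39 in 4OHT against 64 in EtOH for Runx1 delta/+. These differences were not tested, since 1 library per treatment and genotype leaves no degrees of freedom for them. With median-ratio scaling Mavs was lower in 4OHT in both genotypes (-0.76 and -0.12), and Ly96 kept opposite signs (0.03 and -0.77).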

How the results depend on the processing

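Genotype equals the replicate number, and same-numbered libraries deviated together (correlation 0.664 across genes), with 2 pairs only. With this replicate block 3113 genes were called with 4OHT; with no replicate block 117 were called higher and 116 lower, among them 1 and 0 of the 8 sensing genes and 1 and 0 of the 105 other pathway genes. Leaving out each library, in fits that could hold no block, gave 0 to 126 higher (69 without 4OHT replicate 1, 122 without EtOH replicate 2, 0 without EtOH replicate 1) and 3 to 137 lower over all genes (119 without 4OHT replicate 2, 112 without EtOH replicate 2), 0 to 1 higher and 0 lower of the sensing genes, and 0 to 2 higher and 0 to 3 lower of the pathway genes. Median-ratio scaling gave 1221 higher over all genes, and 11 higher and 32 lower of the pathway genes. Between genotypes, no filter, no treatment term and each library left out gave 0 calls in either direction, over all genes as among the sensing and pathway genes; at an unadjusted p under 0.05 limma gave 3906 genes with no filter, 880 with no treatment term and 169 to 627 with a library left out. Median-ratio scaling gave 424 lower.

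The 4OHT difference of Tmem173 was 5.35 with a pseudocount of 0.1 and 3.24 to 3.90 with a library left out. Those of Trex1, Ddx58 and Ifih1 moved more: -1.80 (without EtOH replicate 2) to -0.29 (without EtOH replicate 1), -1.75 (without 4OHT replicate 1) to -0.55 (without 4OHT replicate 2), and -1.01 (without EtOH replicate 2) to -0.37 (without EtOH replicate 1). Tmem173 minus the other 9 genes was -6.84 in EtOH Runx1 delta/delta and -5.17 in EtOH Runx1 delta/+ with that pseudocount, and in 4OHT Runx1 delta/+ it turned to -0.24 against the mean of the 9 and -0.20 against the measured ones. The genotype difference of Tmem173 turned to 1.36 without 4OHT replicate 2 and 1.21 without EtOH replicate 1, and that of Tbk1 to 0.28 and 0.0636. Mavs turned to -0.0813 without EtOH replicate 1 and Myd88 to -0.0157 without 4OHT replicate 1. Without a library, treatment and genotype were no longer balanced; other causes were not tested. Tlr7 and Tlr9 were at or under the floor of 3 reads.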

Other observations

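Single genes of the marker lists also differed between the libraries and are given here as values only. Cd34, a stem and progenitor marker, had 0.395 and 0.0484 RPKM in 4OHT of Runx1 delta/delta and Runx1 delta/+, against 0.0662 and 0.113 RPKM in EtOH. Nkg7, a granule protein gene of cytotoxic lymphocytes, had 6.53 and 2.68 RPKM in 4OHT against 0.178 and 0.365 RPKM in EtOH, while Cd3e and Klrd1 were at 0 throughout. Ly6d, a gene of lymphoid and plasmacytoid precursors, had 3.51 and 2.24 RPKM in 4OHT against 0.167 and 0.172 RPKM in EtOH. Zbtb46, a transcription factor gene of conventional dendritic cells and erythroid progenitors, had 1.25 and 0.974 RPKM in 4OHT against 3.63 and 3.38 RPKM in EtOH. For Nkg7, Ly6d and Zbtb46 the 4OHT and EtOH libraries did not overlap. Other genes of their lists did not all follow them. Cox6a2, listed with Ly6d, had 0.0826 and 0.116 RPKM in 4OHT against 0.0439 and 0.270 RPKM in EtOH. H2-Ab1, listed with Zbtb46, had 1.37 and 4.23 RPKM in 4OHT against 1.33 and 6.12 RPKM in EtOH.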
